A study of Rattus norvegicus with 6 samples.

Results

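The genes examined were 36 genes of oligodendrocytes and myelin, measured by RNA-seq in the amygdala of rats 1 h after a single injection. The list was drawn up by gene name with earlier results of these data known, and the symbols were matched to NCBI gene identifiers. All 36 were found among the 38445 genes counted, and all 36 had enough counts to be tested. The list was sorted into 14 genes of compact and structural myelin, 7 myelin lipid and metabolic enzymes, 5 lineage transcription factors, 5 genes of precursors and newly formed oligodendrocytes, and 5 receptors, channels, carriers and proteases. The animals were adult male Sprague Dawley rats of the wild type, and every rat received 1 intraperitoneal injection. Control rats received saline and ethanol rats received ethanol at 1 g/kg. Each group had 6 rats, and RNA of 2 rats was pooled for each library, which gave 3 control and 3 ethanol libraries. The spread between libraries is therefore that of pools of rats, and the values of single rats cannot be recovered from it.

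Oligodendrocytes arise from dividing precursor cells that carry the receptor Pdgfra and the proteoglycan Cspg4 (NG2). Through a short intermediate stage they become cells that wrap axons in myelin, a compacted membrane rich in galactolipids and in a few very abundant proteins such as myelin basic protein. The transcription factors Olig2, Sox10 and Myrf drive this maturation, and Myrf with Sox10 switches on the myelin genes themselves. In the amygdala, myelinated axons run in fibre tracts around and between the nuclei.

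Assigned counts lay between 62576504 and 70755739 per library, which makes 3 counts equal to 0.0424 to 0.0479 CPM, counts scaled to a common library total. Levels below are CPM after TMM scaling, edgeR's correction for library composition, whose factors were 0.976 to 1.01. Levels of different genes are compared only as TPM, which also divides by exonic length. The 36 genes held between 283 and 254201 counts in a library, so none lay near that floor. Of 18141 genes tested, 0 (0%) were called at the study's threshold of 0.2 on Benjamini-Hochberg adjusted p-values of the edgeR quasi-likelihood fit, whose lowest was 0.818. The unadjusted p fell under 0.05 for 753 genes, while DESeq2 called 74, the edgeR likelihood ratio test 77 and limma-voom 0 at the adjusted threshold.

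No difference between ethanol and control was detected for any of the 36 oligodendrocyte and myelin genes. With edgeR's quasi-likelihood fit and Benjamini-Hochberg adjustment over every gene, 0 of 36 passed an adjusted p of 0.2, where the background over all genes tested was 0%, and the smallest adjusted p among them was 1.00. DESeq2, the likelihood ratio test and limma-voom also called 0 of the 36. At an unadjusted p below 0.05, 0 were higher in ethanol against a background of 1.57%, and 0 were lower against 2.58%. In 0 of 36 did all 3 ethanol libraries lie above all 3 control libraries, which held for 3.65% of all genes, and in 0 did they all lie below, which held for 5.19%. In bulk tissue, a different number of oligodendrocytes and a different amount of RNA per oligodendrocyte cannot be told apart.

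The small differences depended on single libraries. The fitted level was higher in ethanol for 30 genes and lower for 6 (Ermn, Car2, Ptgds, Nkx6-2, Pdgfra and Tf), and the median log2 fold change was 0.10 where that of all genes tested was 0.01. Over all genes tested, 9539 of 18141 (52.6%) were higher in ethanol. Without control 1 the median was 0.32 with 33 genes positive, and without ethanol 1 it was 0.25 with 34 positive. It turned to -0.05 without control 2 and to -0.08 without ethanol 3, with 12 genes positive in each case. The 95% interval of the log2 fold change lay within -1 to 1 for 33 of the 36 genes and within -0.5 to 0.5 for 9, so for most of them a change of 2-fold was outside the interval while smaller changes could not be resolved.

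**Figure D1:**
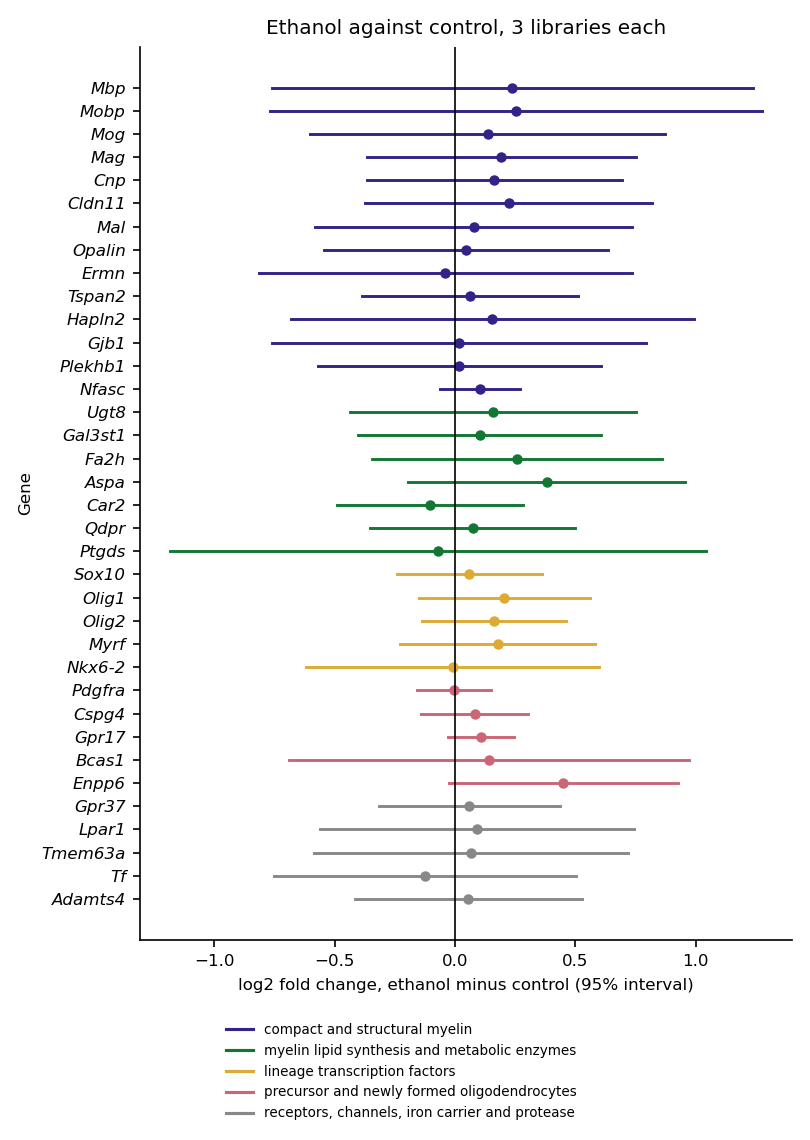
Log2 fold change of each gene, ethanol minus control, with its 95% interval from the edgeR quasi-likelihood fit over 3 libraries a group, coloured by role. Every interval includes 0, and the intervals are narrow for Pdgfra, Gpr17 and Nfasc and wide for Mbp, Mobp and Ptgds.

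Among the structural genes, Mbp, which encodes the myelin basic protein that glues the inner membrane faces together, was the most abundant (chr18:79326738-79437310, Rnor_6.0). Its level was 2719, 1048 and 1982 CPM in control libraries 1, 2 and 3, and 1325, 1802 and 3651 CPM in ethanol libraries 1, 2 and 3. Ethanol 3 was the highest and control 2 the lowest of the 6, 3.49-fold apart, and the groups overlapped over most of their range. The group means were 1916 ± 838 CPM in control and 2260 ± 1229 CPM in ethanol (SD, n = 3). This gave 0.24 (SE 0.43) as log2 fold change with an unadjusted edgeR quasi-likelihood p of 0.597. Counts of Mbp sum all transcripts of the locus, including its longer forms.

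Mobp (chr8:128824420-128854492), another small basic protein of compact myelin, had 1143, 411 and 842 CPM in the control libraries and 577, 736 and 1543 CPM in the ethanol libraries. This was the widest range of the 36 genes, 3.76-fold, with the same libraries at the ends as for Mbp. The log2 fold change was 0.25 (SE 0.44). Cnp (chr10:88490798-88497357), an enzyme of the cytoplasmic channels of myelin, had 440.4, 270.5 and 329 CPM in control and 291, 371 and 503 CPM in ethanol. Its range was narrower, 1.86-fold, with ethanol 3 and control 2 again at the ends. Its log2 fold change was 0.16 (SE 0.23).

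The other 11 structural genes gave log2 fold changes between -0.04 (Ermn, a cytoskeletal protein of late oligodendrocytes) and 0.22 (Cldn11, the tight junction protein of the myelin sheath). Mog, a surface protein of the outermost lamella, ranged from 51.5 to 124.8 CPM, and Mag, the adhesion molecule facing the axon, from 120.4 to 227 CPM. Mal, a raft proteolipid, ranged from 146 to 301 CPM and Opalin, a sialylated membrane protein, from 66.7 to 134 CPM, both with their highest value in control 1. The node-associated link protein gene Hapln2 spanned 2.69-fold, and Gjb1, the connexin 32 gene, 2.37-fold. Tspan2, a tetraspanin, and Plekhb1, a membrane-associated protein, spanned 1.66-fold and 1.94-fold. Nfasc stood apart, with 263, 252 and 231 CPM in control and 262, 263 and 275 CPM in ethanol. It varied by only 1.19-fold, and its counts join the glial neurofascin of the paranode with the neuronal form of the axon, since both come from the same locus.

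Of the enzymes, Ptgds (chr3:2686125-2689059), which makes prostaglandin D2 and is expressed by mature oligodendrocytes but also by leptomeninges and choroid plexus, had the widest spread between libraries of a group. It had 494, 393 and 1303 CPM in the control libraries and 424, 1037 and 625 CPM in the ethanol libraries. Control 3 and ethanol 2 were highest, which was not the order of the myelin structural genes. The means were 729.8 ± 499 CPM in control and 695 ± 312 CPM in ethanol (SD, n = 3), and the log2 fold change was -0.07 (SE 0.48), with a positive value under limma-voom (0.03).

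Car2 (chr2:88097740-88112868), a carbonic anhydrase of myelinating cells that choroid plexus also makes, had 247, 173 and 213 CPM in control and 168, 179 and 241 CPM in ethanol. The log2 fold change was -0.10 (SE 0.17), with control 1 and ethanol 3 the highest. Qdpr (chr14:70164682-70178284), which regenerates tetrahydrobiopterin, had 166, 108 and 119 CPM in control and 114, 134 and 166 CPM in ethanol, and its log2 fold change was 0.07 (SE 0.18). The genes of galactolipid synthesis followed the structural genes. Ugt8, the galactosyltransferase that makes galactosylceramide, ranged from 67.4 to 133 CPM, Fa2h, which hydroxylates its fatty acid, from 20.6 to 43.3 CPM, and Gal3st1, which adds the sulfate of sulfatide, from 4.41 to 7.43 CPM. Aspa, which releases acetate from N-acetylaspartate for lipid synthesis, had 23.9, 13.7 and 23.0 CPM in control and 20.1, 24.7 and 33.9 CPM in ethanol. Its log2 fold change of 0.38 was the largest among the enzymes, with a 95% interval of -0.19 to 0.95.

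The lineage transcription factors varied less than most structural genes, and Nkx6-2 had the widest range among them. Olig1 (chr11:31428377-31430519), a bHLH factor that acts with Olig2, had 113, 89.9 and 96.3 CPM in control and 96.3, 104.7 and 144 CPM in ethanol. The log2 fold change was 0.20 (SE 0.15), and 1 ethanol library lay above all controls. Sox10 (chr7:120393238-120403523), the HMG-box factor needed for terminal differentiation, had 55.7, 42.5 and 47.6 CPM in control and 45.5, 47.0 and 59.2 CPM in ethanol, with a log2 fold change of 0.06 (SE 0.13). Olig2 (chr11:31389514-31392890), which specifies the lineage, had 40.4, 33.2 and 35.9 CPM in control and 34.4, 39.8 and 48.2 CPM in ethanol, and a log2 fold change of 0.16 (SE 0.13). Sox10 had the narrowest range of these 3, 1.39-fold. Myrf, the membrane-bound activator of myelin genes, spanned 1.61-fold with a log2 fold change of 0.18, and Nkx6-2, a homeobox factor of maturing cells, 1.91-fold with a log2 fold change of -0.01.

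Genes of earlier stages fell into 2 kinds. Pdgfra (chr14:35527926-35581130), the growth factor receptor of precursors, which perivascular fibroblasts also carry, had 130.1, 132 and 135 CPM in control and 141, 133 and 123 CPM in ethanol. All 6 libraries lay within 1.15-fold of each other, and ethanol 3, which was highest for most of the myelin genes, was lowest here. The group means were 132 ± 2.69 and 132 ± 9.00 CPM (SD, n = 3), and the log2 fold change was -0.00 with a 95% interval of -0.16 to 0.15. Gpr17 (chr18:24733306-24739194), a receptor of committed precursors that marks the step before myelination, had 55.8, 54.8 and 52.6 CPM in control and 59.6, 55.6 and 60.7 CPM in ethanol. Its groups overlapped only at ethanol 2 and control 1, and the log2 fold change was 0.11 (95% interval -0.03 to 0.25, with an edgeR quasi-likelihood p of 0.105 before and 1.00 after adjustment). Cspg4, which pericytes express as well, ranged from 27.2 to 34.7 CPM.

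Bcas1 (chr3:167957994-168033462), which marks newly formed and actively myelinating cells, behaved unlike these 3. It had 211, 94.3 and 148 CPM in control and 120.1, 124 and 255 CPM in ethanol, a range of 2.71-fold with ethanol 3 highest and control 2 lowest. Its log2 fold change was 0.14 (SE 0.36). Enpp6, a choline phosphodiesterase of newly formed oligodendrocytes, had 5.87, 4.87 and 5.19 CPM in control and 5.39, 6.75 and 9.61 CPM in ethanol. It is named because its log2 fold change, 0.45 (95% interval -0.03 to 0.93), and its unadjusted edgeR quasi-likelihood p, 0.0611, were the largest and the smallest of the 36, a choice made after the values were seen. That p was 0.0342 in DESeq2, 0.0338 without a filter on low counts and 0.0103 without ethanol 1, with adjusted p-values of 0.983 to 1.00 in these 3 fits, and the log2 fold change fell to 0.19 without ethanol 3.

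Of the remaining genes, Tf (chr8:111694570-111721275), the iron carrier transferrin that oligodendrocytes and choroid plexus make, had 482, 299.5 and 353 CPM in control and 225, 341 and 474 CPM in ethanol. It gave the lowest log2 fold change of the 36, -0.13 (SE 0.27), with ethanol 1 the lowest library. Gpr37 (chr4:51822163-51844228), a receptor of differentiating oligodendrocytes, had 116, 81.7 and 83.8 CPM in control and 83.3, 95.2 and 115 CPM in ethanol, with a log2 fold change of 0.06 (SE 0.16). Adamts4 (chr13:89622996-89632485), a secreted protease found in mature oligodendrocytes, had 23.3, 14.3 and 16.8 CPM in control and 15.4, 17.9 and 23.2 CPM in ethanol, with a log2 fold change of 0.05 (SE 0.20). Lpar1, a lysophosphatidic acid receptor, and Tmem63a, a mechanically gated channel, spanned 2.22-fold and 2.07-fold. In these 5 genes control 1 and ethanol 3 were the 2 highest libraries.

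**Figure D2:**
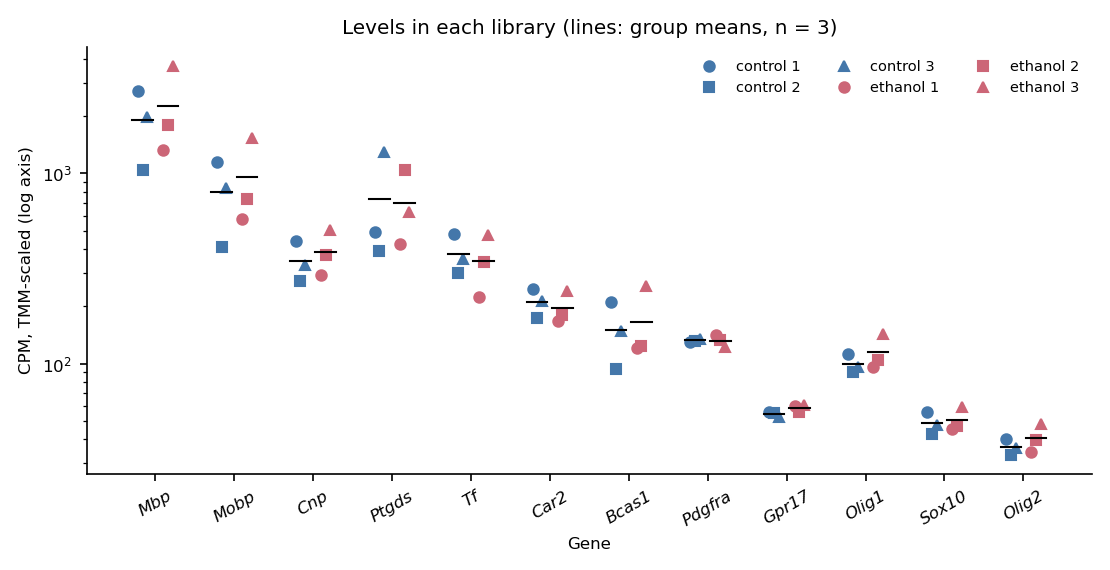
Level of 12 of the genes in each library, as TMM-scaled CPM on a log axis. Blue marks are control and red marks ethanol, the marker shape gives the replicate number, and black lines are group means (n = 3). The groups overlap for every gene, the points of Pdgfra and Gpr17 lie close together, and those of Mbp, Mobp and Ptgds are spread over more than 3-fold.

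Per length, the levels of the 36 genes spanned a wide range. Ptgds had the highest mean TPM over the 6 libraries, 2443, and ranked 14 among all genes, followed by Mbp with 1601 TPM at rank 40. Tf, Mobp, Cnp and Car2 came next with 411, 389, 380.4 and 363 TPM, which lay closer to each other than the spread of any of them between libraries. Bcas1 had 146 TPM and Olig1 130.1 TPM, while Pdgfra, Sox10, Olig2, Myrf and Gpr17 had 32.9 to 48.0 TPM. Enpp6 had 5.90 TPM and Gal3st1, the lowest, 2.48 TPM, at rank 13220. Together the 36 genes made up 7806 ± 2391 TPM in control and 8149 ± 2342 TPM in ethanol (SD, n = 3), and 5295 ± 1537 and 5773 ± 2058 TPM without Ptgds.

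The larger differences were between libraries of the same group, and the myelin genes shared them. Ethanol 3 and control 1 were the 2 highest libraries for 30 of the 36 genes (83.3%), a pattern found in 11.0% of all genes tested. Control 2 and ethanol 1 were the 2 lowest for 30 of 36, against 8.71% of all genes tested. Both held at once for 28 of 36 (77.8%), against 2.87% of all genes tested and 3.17% of the 11709 genes with a mean level at or above the lowest of the 36 (5.56 CPM). The upper pair was the same for all 14 structural genes, and the lower pair for 13 of them, Nfasc being the exception. This order of libraries was seen in the values and then counted, so the counts describe it and no test was made of it.

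**Figure D3:**
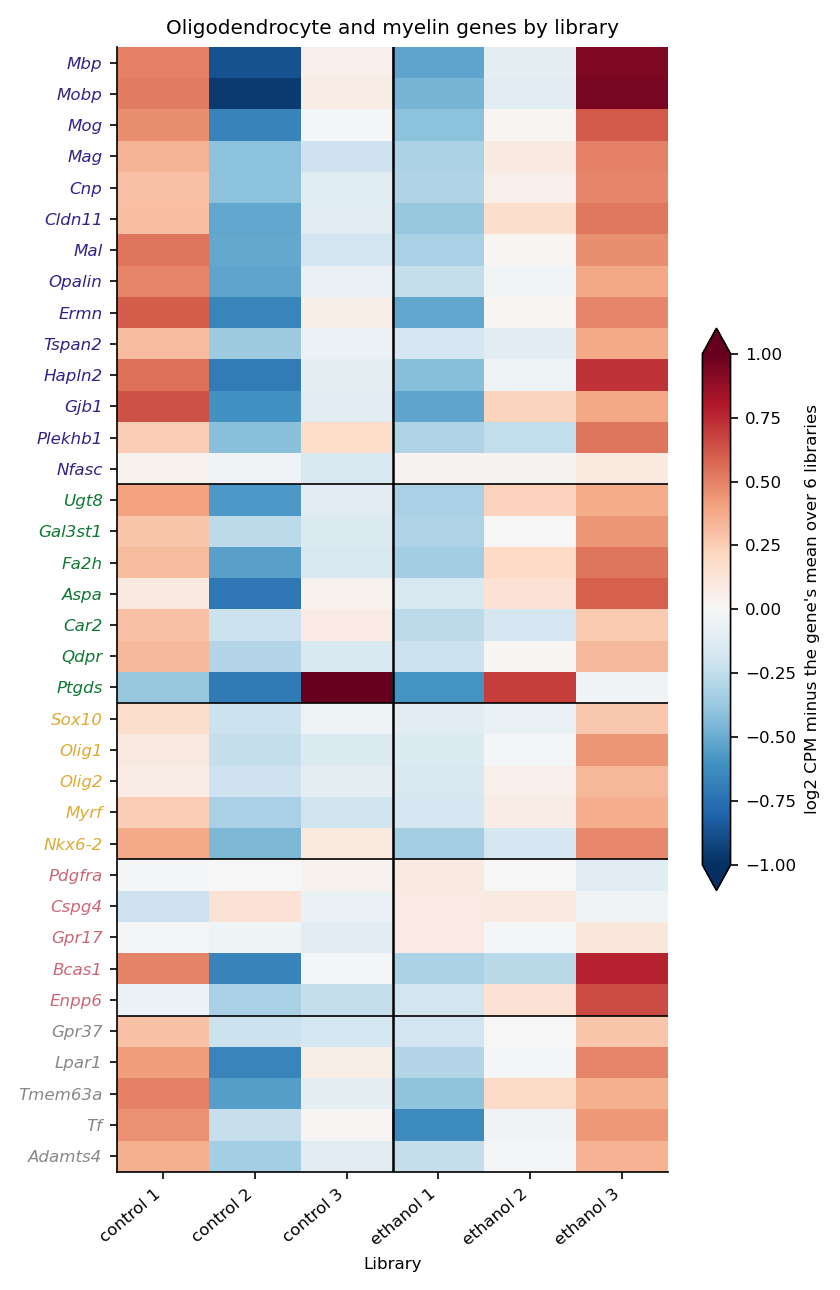
Log2 CPM of each of the 36 genes in each library, minus that gene's mean over the 6 libraries. The colour scale ends at -1 and 1. Rows are grouped by role, with label colours as in the fold change plot, and the vertical line separates control from ethanol. Control 1 and ethanol 3 are red and control 2 and ethanol 1 are blue in most rows, while Nfasc, Pdgfra, Cspg4 and Gpr17 are pale and Ptgds is red in control 3 and ethanol 2.

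As a measure of this spread, the SD of log2 CPM within a group had a median of 0.42 over the 36 genes, where the 11709 genes at or above their lowest level had a median of 0.10. By role the median was 0.45 for structural genes, 0.42 for enzymes and 0.25 for transcription factors. It was 0.45 for the receptors, channels, carriers and proteases, and 0.13 for the genes of precursors and newly formed oligodendrocytes. The latter 5 genes ran from 0.06 (Gpr17) to 0.60 (Bcas1), with Enpp6 at 0.31. Of the 36, 30 lay above the 90th percentile of those 11709 genes. The transcription factors lay between percentile 86.6 (Olig2) and 98.2 (Nkx6-2), so their spread too was high for the level. A range of 2-fold or more between the highest and the lowest library was seen in 16 of the 36 genes (44.4%) and in 2.21% of the 11709. Pdgfra, Gpr17 and Nfasc lay below the median of the 11709 genes, with SDs of 0.07, 0.06 and 0.07.

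**Figure D4:**
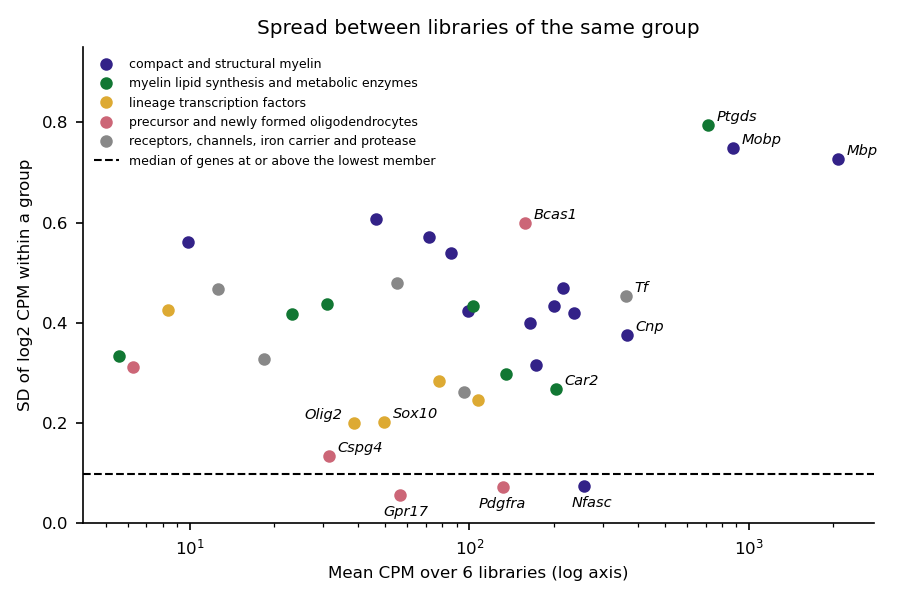
SD of log2 CPM between libraries of the same group against mean CPM (log axis) for the 36 genes, coloured by role. The dashed line is the median over the 11709 genes with a level at or above the lowest of the 36, 0.10. Pdgfra, Gpr17 and Nfasc lie under the line, Cspg4 just above it, and Mbp, Mobp, Ptgds and Bcas1 at 0.60 to 0.79.

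Ratios within a library do not depend on library scaling, and the pairs were picked from genes whose values are given above. Pdgfra varied by only 1.15-fold, and ratios to it mostly repeat the spread of the other gene. The ratio of Mbp to Pdgfra in CPM was 20.9, 7.95 and 14.6 in control libraries 1, 2 and 3 and 9.42, 13.6 and 29.7 in ethanol libraries 1, 2 and 3, a range of 3.74-fold. That of Mobp to Pdgfra ran from 3.12 in control 2 to 12.6 in ethanol 3. Bcas1 over Gpr17, both genes of intermediate stages, ran from 1.72 in control 2 to 4.20 in ethanol 3. Olig2 over Pdgfra, a factor of all stages over a precursor gene, varied least, from 0.244 in ethanol 1 to 0.393 in ethanol 3. In each ratio ethanol 3 was highest and the groups overlapped.

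Most mature genes moved together between libraries, and so did Bcas1, while the precursor genes Pdgfra, Cspg4 and Gpr17 did not. Enpp6 shared the order in part, highest in ethanol 3 and lowest in control 2, but with ethanol 2 above control 1. The sequence before the gene start was also examined in mature and in precursor genes, and its part in the library order was not tested. The windows were the 250 bases before the annotated start in RefSeq's GRCr8, a later build than the Rnor_6.0 of the counts, and 28 of the 36 genes had an entry, with 30 windows in all since a gene can have several starts. Mog, Ermn, Car2, Sox10, Olig1, Myrf, Bcas1 and Lpar1 had no entry. The letters searched, on both strands, were ACAAAG, the core that SOX factors such as Sox10 recognize, and CTGGCAC and CTGGTAC, 2 spellings of the site of Myrf. The motifs were chosen after the expression values had been seen. Mobp (chr8:128746982-128747231, plus strand), Cnp (chr10:86011254-86011503, plus strand) and Opalin (chr1:249858191-249858440, minus strand) are shown as examples of mature myelin genes with matches, and Pdgfra (chr14:33408517-33408766, minus strand) as a precursor gene without one, each 5′ to 3′ in the direction of transcription, with capitals for matches on either strand.
Mobp: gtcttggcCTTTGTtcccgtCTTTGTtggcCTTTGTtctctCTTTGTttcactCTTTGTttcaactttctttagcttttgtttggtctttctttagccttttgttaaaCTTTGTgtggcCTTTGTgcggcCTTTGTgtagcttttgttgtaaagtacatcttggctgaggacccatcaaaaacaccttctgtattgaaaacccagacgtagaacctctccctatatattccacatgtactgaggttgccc
Cnp: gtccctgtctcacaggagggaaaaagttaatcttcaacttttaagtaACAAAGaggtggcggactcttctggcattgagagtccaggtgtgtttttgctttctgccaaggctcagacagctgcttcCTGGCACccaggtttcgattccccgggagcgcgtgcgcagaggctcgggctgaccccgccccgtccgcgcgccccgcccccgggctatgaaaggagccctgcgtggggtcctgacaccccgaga
Opalin: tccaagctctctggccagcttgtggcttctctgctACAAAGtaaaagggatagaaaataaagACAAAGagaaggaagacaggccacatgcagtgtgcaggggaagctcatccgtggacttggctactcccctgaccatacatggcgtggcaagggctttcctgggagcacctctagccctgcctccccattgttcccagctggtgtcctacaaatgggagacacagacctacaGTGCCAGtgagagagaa
Pdgfra: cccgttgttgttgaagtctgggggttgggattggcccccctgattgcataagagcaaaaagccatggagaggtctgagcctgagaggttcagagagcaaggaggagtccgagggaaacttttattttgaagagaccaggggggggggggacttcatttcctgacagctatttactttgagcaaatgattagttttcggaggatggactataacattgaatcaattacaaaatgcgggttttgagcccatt

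In the Mobp window the SOX core occurred 8 times, every time as its reverse complement and within a T-rich stretch that is close to a repeat. The Cnp window held 1 SOX core and 1 Myrf spelling, and that of Opalin 2 SOX cores and 1 Myrf spelling on the reverse strand. The Pdgfra window held none of these letters. Over the 30 windows of the examined genes the SOX core was present in 9 (30%), against 16.3% of all 33469 windows. CTGGCAC was present in 6 (20%) against 3.78%, and CTGGTAC in 2 (6.67%) against 1.78%. Either Myrf spelling was present in 8 of 30 (26.7%) against 5.48%, and both a SOX core and a Myrf spelling in 4 (13.3%) against 0.863%. The windows shown were picked by whether they held matches. At least 1 of the motifs was present in 9 of 14 windows of structural genes, 0 of 6 of enzymes and 1 of 2 of transcription factors. For receptors, channels, carriers and proteases it was 2 of 4, and for precursor genes 1 of 4 (Enpp6). Among the structural genes Mbp and Nfasc had 2 windows each, and Mog and Ermn had none. The share of all windows with at least 1 of the motifs was not counted, so nothing is read from these counts by role. No matches of the motifs overlapped. Such matches are letters in a window and do not show binding, and whether these starts are the ones used in the amygdala was not tested.

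Markers of other cells were followed in the same libraries, because several of the 36 genes are made by more than 1 cell type. For choroid plexus epithelium, 17 of 18 markers were tested and all 17 had lower means in ethanol, 9 of them at an unadjusted edgeR quasi-likelihood p below 0.05 and 7 without overlap between the groups. Of all genes tested, 2.58% were lower at such a p and 5.19% lay below control without overlap. Kcnj13, Kl, Sostdc1, Kcne2, Calml4 and Enpp2 met both conditions, and of these Enpp2 is also expressed by oligodendrocytes. The summed level of all 18 markers was 1911 to 4087 TPM in control and 128, 156 and 1790 TPM in ethanol libraries 1, 2 and 3. The highest of the 18, Ttr, had 462, 996 and 817 CPM in control and 5.42, 4.34 and 425 CPM in ethanol. Its groups did not overlap, with an unadjusted edgeR quasi-likelihood p of 0.150. Otx2, the marker not tested, had 0 to 1 counts in a library. Tf and Car2 were lowest in ethanol 1, where this sum was lowest too, but both were next lowest in control 2, where the sum was highest. The part of choroid plexus in their values was not tested.

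For vascular and leptomeningeal fibroblasts, 13 of 15 markers were tested, with Col1a2 and Ogn listed at 0 in every library, and their summed level was 195, 196 and 379 TPM in control and 156, 280.1 and 210.0 TPM in ethanol libraries 1, 2 and 3. The highest libraries were control 3 and ethanol 2, as for Ptgds. The lowest sum was in ethanol 1, followed by control 1 and control 2 with almost equal sums, where the lowest of Ptgds were control 2 and ethanol 1. By the median of log2 CPM minus each gene's mean, control 2 (-0.49) and ethanol 1 (-0.32) were the lowest. They were the 2 lowest libraries in 6 of the 13 markers, against 8.71% of all genes tested. Of the 13, 1 was lower in ethanol at an unadjusted p below 0.05 (Dcn), against 2.58% of all genes tested. Their part in the level of Ptgds was not tested.

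In the remaining lists, the summed level of 14 tested ependymal and ciliary markers was 87.9 to 130.4 TPM in control and 73.8 to 78.0 TPM in ethanol, with 11 lower at an unadjusted p below 0.05 and 8 with groups that did not overlap (Tmem212, Dnah5, Dnah11, Cfap43, Cfap44, Ak7, Dynlrb2 and Cfap126, all of them among the 11). The shares of all genes tested were 2.58% and 5.19% in that direction. Pan-neuronal markers, 14 of 15 tested, had 9475, 10166 and 9073 TPM in control and 10565, 10898 and 8979 TPM in ethanol, lowest in ethanol 3, where most myelin genes were highest. The 15 astrocyte markers had 7340 to 8974 TPM in control and 7422 to 10176 TPM in ethanol, with the highest value in ethanol 3. The 15 microglial markers had 1309 to 1520 TPM and 1294 to 1571 TPM, and the 15 endothelial and pericyte markers 359 to 416 TPM and 360.4 to 418 TPM. Eno2, the marker not tested, had 0 to 5 counts in a library although neurons express it strongly. Neither it nor Col1a2, Ogn or Otx2 shared exonic bases with another gene on its strand, why they held so few counts was not tested, and these values are not read as levels of expression. Between the highest and the lowest library the sums of these 5 remaining lists differed by 1.16-fold to 1.77-fold, and the part of these cells in the library order of the myelin genes was not tested. In the astrocyte, microglial and endothelial lists Sox9, Tmem119, Fcrl2 and Kdr had an unadjusted p below 0.05 and groups that did not overlap. Tmem119 was higher in ethanol (log2 fold change 0.57), while Sox9 (-0.43), Fcrl2 (-0.50) and Kdr (-0.43) were lower. Of all genes tested, 1.57% were higher and 2.58% lower at that p, and 3.65% and 5.19% did not overlap.

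**Figure D5:**
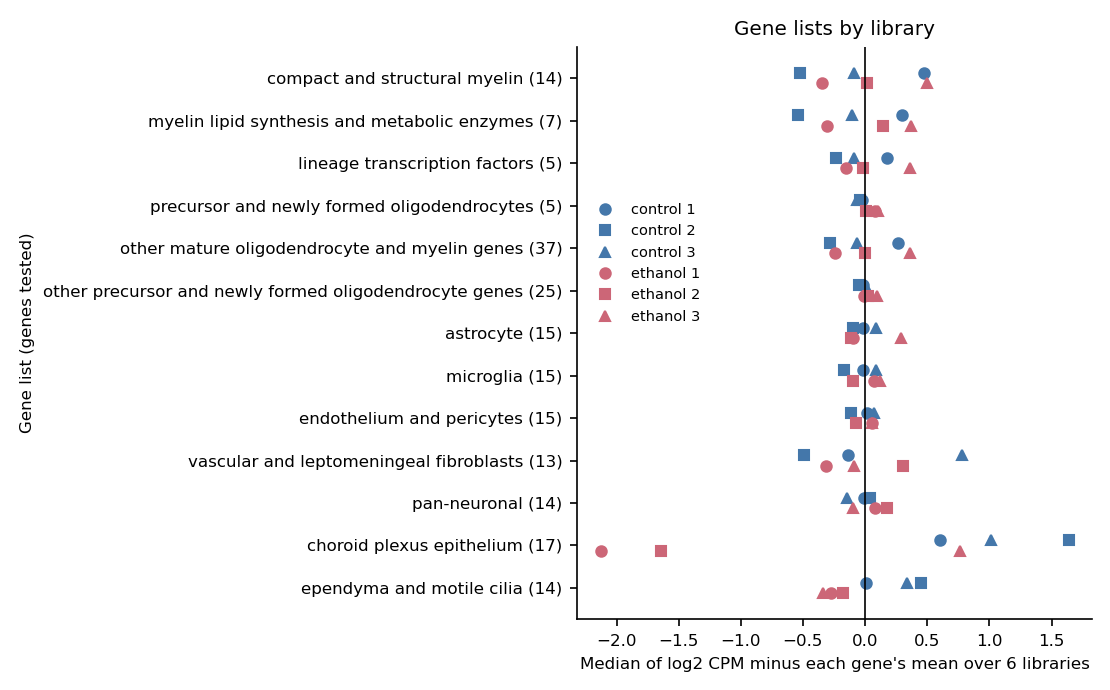
Median, over the genes of each list, of log2 CPM minus the gene's mean over the 6 libraries, for each library. The number of genes tested stands beside each list, blue marks are control and red marks ethanol, and the marker shape gives the replicate number. The 2 lists of mature oligodendrocyte genes run from control 2 and ethanol 1 on the left to control 1 and ethanol 3 on the right, the 2 precursor lists stay near 0, and the choroid plexus list is lowest in ethanol 1 and ethanol 2.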

How the data were processed

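RNA-seq of rat amygdala gave 3 control and 3 ethanol libraries, each from RNA pooled from 2 rats. According to the labels and file headers, the authors trimmed single-end reads of stranded libraries, aligned them with STAR 2.7.0f to Rnor_6.0 and deposited raw counts per gene, made by featureCounts of Subread 1.6.3 with the reverse-strand setting over exons. Multiply aligned reads and reads shared by several genes on a strand had been left out. The deposited exonic length of each gene was the other column used here, for TPM. None of the 36 genes shared exonic bases with another gene on its strand.

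Symbols came from a RefSeq gene table (GRCr8), which named 29322 of the 38445 identifiers. The 36 genes, their roles, the marker lists and the pathway lists were chosen with earlier results of these data known. Groups came from the treatment in the labels. Counts were analysed in R 4.3.3 with edgeR 4.0.16 (filterByExpr with a minimum of 10 counts and 15 in total, TMM, quasi-likelihood F test, Benjamini-Hochberg over 18141 genes, threshold 0.2), and the fit was tested on simulated data. The SE is the absolute log2 fold change over the square root of F. DESeq2 1.42.0, limma 3.58.1 (voom), the edgeR likelihood ratio test, other scalings and filters, the replicate number as a term and leaving out each library were alternatives. An exact permutation test on 3 against 3 libraries cannot go below 0.1 and was not used. Replicates differed by more than counting error (chi-square per degree of freedom 15.3 to 72.6). By rule, genes given in full were the 3 with the highest mean TPM in each role and any whose unadjusted p was below 0.05 or whose groups did not overlap, of which there were none. List genes were named by rule where both conditions were met. Nfasc, Aspa and Enpp6 in full, and Dcn, Cacng4, Kdsr, Sgms1, Kcnq3, Lifr, Fgf2 and Jag1, which met 1 condition, were added after their values were seen.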

Additional observations from a re-analysis of the deposited data

How the results depend on the processing

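With all 6 libraries, 0 of the 36 genes were called in the fit reported and in 8 alternatives of scaling, test, filter and replicate block, and 0 when any library was left out. Over all genes, DESeq2 called 74 and the likelihood ratio test 77, and leaving out a library gave 0 to 83, with 83 without ethanol 3 and 4 without ethanol 1. At an unadjusted p below 0.05, 1 of the 36 (Enpp6) passed in DESeq2, without a filter and without ethanol 1 (0 to 1 over the left-out libraries). Of all genes, 646 of 18141, 1011 of 27728 and 659 of 18439 passed in these fits, in that order. The groups did not overlap for 1 gene without a filter (Nfasc), and for 0 to 4 with a library left out: 4 without control 1 (Nfasc, Myrf, Gpr17 and Enpp6), 2 without ethanol 1 (Aspa and Enpp6), and 1 each without control 2 (Cspg4) and ethanol 2 (Gpr17). With a library left out, groups separate more easily. The share of all genes was not counted in these fits, so nothing is read from these counts. The median log2 fold change of the 36 was 0.07 to 0.11 with all libraries and -0.084 to 0.32 with one left out, negative without control 2 (-0.053) and ethanol 3 (-0.084). Scaling by library size alone moved the median of all genes to -0.02 and that of the 36 to 0.07, and the median then stayed above that of all genes. The range of the summed level was 1.98-fold, and 2.15-fold without Ptgds, an alternative added after the data were seen. The 5 highest genes were the same by TPM and CPM.

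Direction turned with all libraries in 4 genes, all with a change near 0: Gjb1 (-0.0086) and Plekhb1 (-0.0041) by library size alone, Plekhb1 (-0.011) and Ptgds (0.035) under limma-voom, and Ermn (0.0030), Plekhb1 (-0.0050) and Ptgds (0.024) with the replicate block. It turned in 28 of the 36 with at least 1 library left out, and the cause was not tested. The lowest and highest log2 fold changes were Mbp -0.29 to 0.57, Mobp -0.28 to 0.60, Mog -0.18 to 0.43, Mag -0.038 to 0.43, Cnp -0.067 to 0.37, Cldn11 -0.0042 to 0.44, Mal -0.15 to 0.42, Opalin -0.17 to 0.34, Ermn -0.32 to 0.30, Tspan2 -0.13 to 0.24, Hapln2 -0.24 to 0.52, Gjb1 -0.23 to 0.41, Plekhb1 -0.30 to 0.17, Ugt8 -0.050 to 0.43, Gal3st1 -0.12 to 0.27, Car2 -0.28 to 0.016, Qdpr -0.079 to 0.27, Ptgds -0.48 to 0.65, Sox10 -0.070 to 0.16, Nkx6-2 -0.30 to 0.18, Pdgfra -0.051 to 0.047, Cspg4 -0.0056 to 0.18, Bcas1 -0.31 to 0.45, Gpr37 -0.074 to 0.24, Lpar1 -0.15 to 0.34, Tmem63a -0.15 to 0.38, Tf -0.42 to 0.11 and Adamts4 -0.12 to 0.27.

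Both groups carry the replicate numbers 1 to 3. Deviations from the group means correlated by 0.0264, 0.388 and 0.211 for the same number over 14241 genes, and by 0.305 for control 1 with ethanol 3, so the numbers were not taken as pairs. With the replicate block 0 genes were called, 1015 had an unadjusted p below 0.05, and the median of the 36 was 0.11. Precision was limited by 3 pooled libraries a group and the spread between them more than by depth.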

Other observations

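Beyond the 36 genes, 6 lists of related genes were counted, and none of their genes passed an adjusted p of 0.2 with the edgeR quasi-likelihood fit used for the 36 genes. Of 39 other mature oligodendrocyte and myelin genes, 37 were tested (Tmem125 had 0 to 3 counts in a library and Tmem151a 0, for a reason that was not tested), 29 had higher means in ethanol, 0 had an unadjusted p below 0.05, and the median log2 fold change was 0.06. Their libraries followed the order of the 36, with control 1 and ethanol 3 the 2 highest and control 2 and ethanol 1 the 2 lowest in 23 of 37. In 25 tested genes of precursors and newly formed cells that order was seen in 0, which is near the 2.87% of all genes tested. Neu4 of the same list was listed at 0, for a reason that was not tested. For the 25 genes the median SD of log2 CPM within a group was 0.16 and the median log2 fold change 0.05. Cacng4, an AMPA receptor auxiliary subunit, was higher in all 3 ethanol libraries there, with an unadjusted p of 0.118. That separation held for 3.65% of all genes tested.

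Among 20 further transcription regulators of the lineage the median log2 fold change was -0.01. The library order of the myelin genes was seen in 2 of them (10%), against 2.87% of all genes tested. Id2, an inhibitor of bHLH factors that holds back oligodendrocyte differentiation, had 61.6, 56.9 and 59.5 CPM in control and 61.8, 68.9 and 71.2 CPM in ethanol. Its groups did not overlap, and its log2 fold change was 0.18 (SE 0.07, with an edgeR quasi-likelihood p of 0.0318 before and 1.00 after adjustment). The 16 enzymes of galactolipid and sphingolipid turnover had a median of 0.03 and a low spread within a group (median SD 0.06), with Kdsr and Sgms1, of ceramide and sphingomyelin synthesis, higher in all 3 ethanol libraries at unadjusted p-values of 0.0978 and 0.125. The 15 axonal partners of nodes and paranodes had a median of 0.06, with 1 at an unadjusted p below 0.05 (Kcnq3, a potassium channel of the initial segment and node, log2 fold change 0.23). The 25 growth signals and receptors had a median of 0.03, with 1 at an unadjusted p below 0.05 (Lifr, the leukemia inhibitory factor receptor, 0.27), Fgf2 higher and Jag1 lower in all 3 ethanol libraries. Of all genes tested, 1.57% were higher at that p, and 3.65% lay above and 5.19% below control without overlap.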
